A study of Homo sapiens with 6 samples.

Results

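Human chromosome 14 carries ESR2, which codes for estrogen receptor beta (ERβ), and the values given here follow the genes of that chromosome in cells in which ESR2 was targeted. The members were all genes with an Affymetrix probe set that the array's identifiers assign to chromosome 14 and that the platform annotation gives exactly 1 gene symbol. A gene with several such probe sets was represented by its brightest, taken as the mean of the 6 arrays. The rule gave 1249 genes of the 33578 tested, and 1223 of them had a RefSeq gene on chromosome 14 and were placed in order of their start. These comprised 544 protein-coding genes, 281 pseudogenes, 87 microRNA genes, 79 long non-coding RNA genes, 46 small nucleolar RNA (snoRNA) genes and the segments of the immunoglobulin heavy chain and T cell receptor alpha and delta loci. A further 9 had a RefSeq gene of the same name on another chromosome, 17 had no RefSeq entry, and none of these 26 unplaced genes was called higher or lower.

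The samples were 3 arrays of control KPL4 cells and 3 arrays of KPL4 cells with a CRISPR/Cas9 knockout of ERβ. KPL4 is an established human line of inflammatory breast cancer, and all cells grew in Ham's F-12 medium with serum, HEPES, insulin and hydrocortisone with no treatment recorded. The labels call the arrays of a group biological replicates, but they give no edited sequence, do not tell a single clone from a mixed population, and are silent on what the control cells had received. Separate cultures are not stated either, so p-values reflect variation among these 6 arrays that could be technical. DNA copy number was not measured.

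ERβ is a nuclear receptor that, bound to estrogen, attaches to estrogen response elements in DNA and alters transcription of nearby genes. The long arm of chromosome 14 ends in a gene-rich region that holds AKT1, a kinase of growth factor signalling, and an imprinted cluster between DLK1 and DIO3, in which coding genes are transcribed from the paternal chromosome and long non-coding RNAs, microRNAs and snoRNAs from the maternal one. Neighbouring genes can share a promoter region, a chromatin domain or the number of copies of the DNA that carries them, and none of these was measured on the arrays.

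Promoter letters are shown for 5 genes whose values are described below: ESR2 as the targeted gene, PTPN21 and CATSPERB from GPR65 to ITPK1, and RCOR1 and AKT1 from EML1 to AKT1. They are the 250 bases upstream of the RefSeq start (GRCh38.p14), read 5′ to 3′ on the strand of the gene, and these genes were chosen for printing after their values were seen. Capitals mark the GC box, the letters GGGCGG or CCGCCC that Sp1-type factors recognise, and the estrogen response element half-site, AGGTCA or TGACCT.
ESR2, chr14:64338614-64338863, minus strand: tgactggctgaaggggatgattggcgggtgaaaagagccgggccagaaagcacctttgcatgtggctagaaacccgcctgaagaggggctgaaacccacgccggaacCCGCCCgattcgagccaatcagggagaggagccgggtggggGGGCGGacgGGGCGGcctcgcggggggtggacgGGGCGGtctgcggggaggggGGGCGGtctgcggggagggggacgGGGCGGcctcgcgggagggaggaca
PTPN21, chr14:88555008-88555257, minus strand: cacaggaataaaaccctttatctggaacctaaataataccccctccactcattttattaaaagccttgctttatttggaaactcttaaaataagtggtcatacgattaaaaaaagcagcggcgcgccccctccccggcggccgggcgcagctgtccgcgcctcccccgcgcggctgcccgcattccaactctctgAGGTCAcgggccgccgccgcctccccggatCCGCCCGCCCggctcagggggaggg
CATSPERB, chr14:91732087-91732336, minus strand: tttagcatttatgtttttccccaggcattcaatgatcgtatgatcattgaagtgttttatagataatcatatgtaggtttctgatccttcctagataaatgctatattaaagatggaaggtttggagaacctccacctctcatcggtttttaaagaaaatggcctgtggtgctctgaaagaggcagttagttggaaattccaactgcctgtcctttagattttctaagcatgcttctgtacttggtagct
RCOR1, chr14:102592399-102592648, plus strand: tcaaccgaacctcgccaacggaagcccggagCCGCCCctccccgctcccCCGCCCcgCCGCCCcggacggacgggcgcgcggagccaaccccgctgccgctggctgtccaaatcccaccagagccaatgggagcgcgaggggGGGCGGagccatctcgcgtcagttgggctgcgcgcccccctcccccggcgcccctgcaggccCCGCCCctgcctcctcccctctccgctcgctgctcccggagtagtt
AKT1, chr14:104795749-104795998, minus strand: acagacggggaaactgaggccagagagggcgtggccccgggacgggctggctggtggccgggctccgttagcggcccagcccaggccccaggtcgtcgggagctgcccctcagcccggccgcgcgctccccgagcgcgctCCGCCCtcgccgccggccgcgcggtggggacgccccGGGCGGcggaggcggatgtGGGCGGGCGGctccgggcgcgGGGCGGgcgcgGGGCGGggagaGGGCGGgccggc
With overlapping matches counted, these stretches held 6 GC boxes upstream of ESR2, 2 upstream of PTPN21, 0 upstream of CATSPERB, 5 upstream of RCOR1 and 7 upstream of AKT1. A half-site lay upstream of PTPN21. The share of G and C was 37.6% upstream of CATSPERB, against 59.2% for PTPN21, 71.2% for ESR2, 76.4% for RCOR1 and 83.2% for AKT1.

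Values are log2 signal, a scale on which a difference of 1 is a doubling, and differences are knockout minus control. A gene was called where limma gave an adjusted p under 0.05 (Benjamini-Hochberg over all 33578 genes), and it was termed bright where its mean over the 6 arrays lay above 5.05, the median of the tested genes. Median signal over all probe sets ran from 4.08 to 4.12 across the arrays. Pearson's r across bright genes was 0.995 to 0.997 within and 0.986 to 0.988 between groups. All 8 luminal epithelial markers were bright in both groups, with 3 called (CLDN3, ESRP1 and KRT19) and summed log2 levels of 108.7 to 109.2 on control and 112.0 to 112.8 on knockout arrays. Of the leukocyte markers, 10 of 14 were measured, 3 were bright (CD68, ITGAM and PTPRC), 1 was called (CD68), and sums ran from 48.5 to 49.4 and from 49.4 to 50.5. Sums of the 7 measured fibroblast markers (3 bright, 0 called) ran from 36.6 to 38.2 and from 37.1 to 37.7, and those of the 5 endothelial markers (2 bright, 0 called) from 23.0 to 23.4 and from 23.6 to 23.9. The part of any such cells in the results was not tested, and in RNA of whole cultures fewer cells of a type and less RNA per cell cannot be told apart.

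Of the 1249 chromosome 14 genes, 109 (8.73%) were called higher and 40 (3.20%) lower in knockout cells, where 4.80% and 3.20% of all tested genes were. The count of lower genes was 20 without control array 1, and 21, 12 and 17 without knockout arrays 1, 2 and 3. The stretches described next were singled out because of these same differences between knockout and control arrays, so their medians and counts describe them and test nothing. Among bright coding genes 11.0% of the whole array were called higher and 6.78% lower, with a median difference of 0.07 (17.8% were called in either direction), and on chromosome 14 the median was 0.19 with 98 of 385 (25.5%) higher and 28 (7.27%) lower. These calls lay unevenly along the chromosome. From EML1 to AKT1 the median difference of 35 bright coding genes was 0.90 and 26 (74.3%) were called higher, whereas from GPR65 to ITPK1 it was -0.49 over 22 genes and 9 (40.9%) were called lower. Around ESR2 itself, over 15 bright genes, it was 0.14, and it was 0.084 without control array 1, 0.074 after repeated quantile normalization and 0.036 over all placed genes of that stretch.

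**Figure D1:**
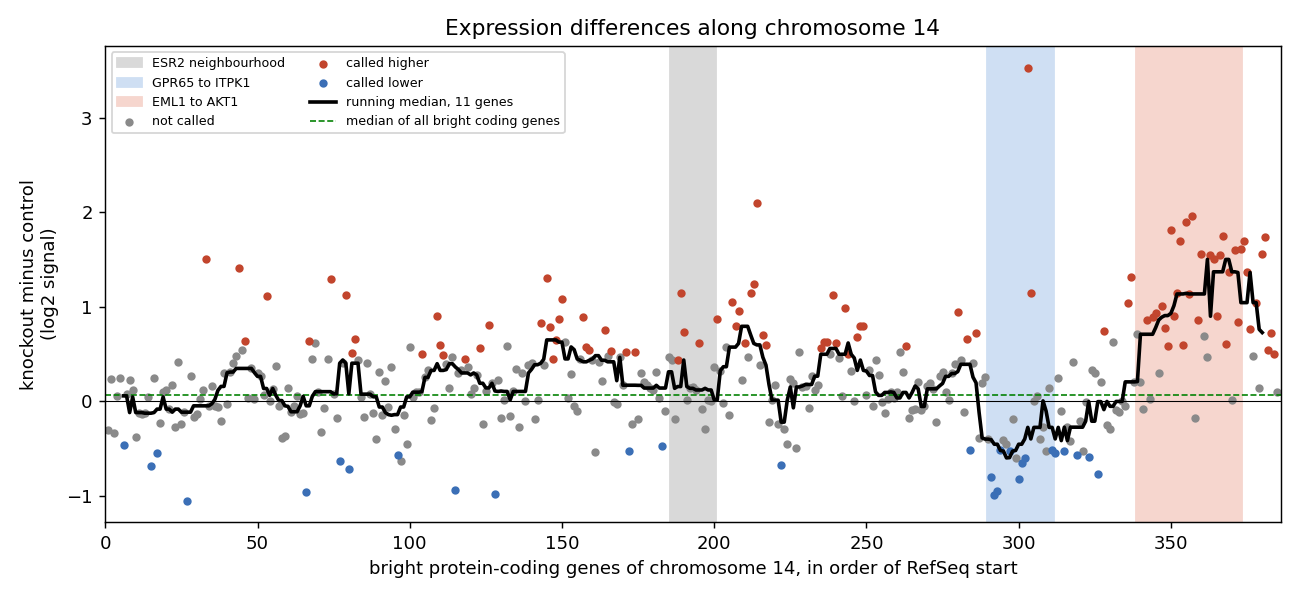
Each point is 1 of the 385 bright protein-coding genes of chromosome 14 in order of RefSeq start; the vertical axis is knockout minus control in log2 signal, the black line the running median of 11 genes, and shading marks the stretches named. The line is lowest (-0.60) within GPR65 to ITPK1 and highest (1.50) within EML1 to AKT1, and the neighbourhood of ESR2 lies between 0.02 and 0.44.

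The targeted gene was compared first. ESR2 read 3.99, 3.69 and 4.16 on control arrays and 3.90, 4.08 and 4.01 on knockout arrays. The groups overlapped, and the difference of 0.05 (SE 0.15) did not pass limma's test (adjusted p = 0.90). Since all 6 values were dim, and the array does not read the edited sequence, the signal cannot check the labels. Of the 20 protein-coding genes flanking ESR2, 10 on each side, 4 were called higher and 0 lower. The 4 were all bright, 26.7% of the 15 bright ones. Among bright coding genes 25.5% were called higher on chromosome 14 and 11.0% on the whole array. At an unadjusted limma p under 0.05, 6 of the 15 (40.0%) were higher and 0 lower.

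WDR89, a WD repeat protein, had the largest difference of these neighbours. It read 10.68, 10.64 and 11.03 in control and 11.71, 11.96 and 12.12 in knockout cells, a rise of 1.15 (SE 0.16) or 2.22-fold. SGPP1, the phosphatase that removes the phosphate of sphingosine-1-phosphate, read 10.85, 10.79 and 10.85 against 11.79, 11.46 and 11.42, a rise of 0.73 (SE 0.14) or 1.66-fold. For both, every knockout array was above every control array. ZBTB1, a zinc finger transcription factor, read 11.31, 11.39 and 11.24 against 12.05, 11.98 and 11.76, a rise of 0.62 (SE 0.13) or 1.54-fold. PPP2R5E, a regulatory subunit of protein phosphatase 2A, read 14.23, 14.35 and 14.25 against 14.64, 14.77 and 14.74, a rise of 0.44 (SE 0.12) or 1.35-fold. Both sets of arrays were again apart, but the call of ZBTB1 was lost without knockout array 1 or 2 (difference 0.56 to 0.60) and that of PPP2R5E without any 1 of the 6 arrays (0.41 to 0.48).

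The immediate neighbours of ESR2 did not pass the test. SYNE2, which codes for nesprin-2 of the nuclear envelope, read 7.01, 6.71 and 6.95 in control and 6.76, 6.76 and 7.19 in knockout cells, a difference of 0.01, and its second probe set differed by 0.05. On the other side MTHFD1, a folate enzyme, differed by 0.14, ZBTB25 by 0.16 and AKAP5, an anchor of protein kinase A, by 0.12. HIF1A, the oxygen-regulated subunit of hypoxia-inducible factor, read 15.46, 15.05 and 15.39 against 15.77, 15.70 and 15.76, and GPX2, a glutathione peroxidase, 13.43, 13.49 and 13.35 against 13.84, 13.74 and 13.81. In both genes the groups did not overlap, though neither difference (0.44 and 0.37) was called; both were called among bright genes alone and with trended and robust variance. The remaining bright neighbours lay from -0.29 (PLEKHG3) to 0.02, among them SNAPC1 at -0.19, HSPA2 at -0.08, CHURC1 at 0.00 and the CHURC1-FNTB readthrough gene, which shares sequence with CHURC1, at 0.02. The 6 dim ones were ESR2, SYT16 (-0.11), KCNH5 (-0.10), GPHB5 (0.02), RHOJ (0.08) and PPP1R36 (0.21). The genes called higher were therefore 2 to 4 coding genes from ESR2. PPP2R5E, WDR89 and SGPP1 directly followed each other among coding genes. ZBTB1 stood on the other side of ESR2 between genes that did not pass.

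**Figure D2:**
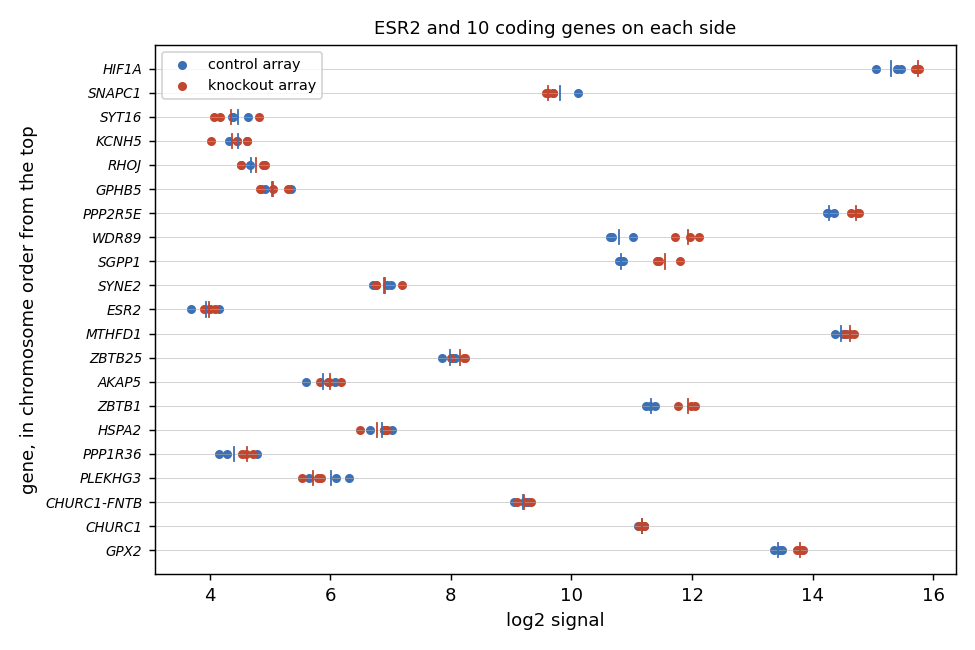
Each row is ESR2 or 1 of the 10 coding genes on either side, in chromosome order; points are the 3 control and 3 knockout arrays in log2 signal and vertical ticks the group means. WDR89, SGPP1, ZBTB1 and PPP2R5E have knockout points to the right of all control points, while those of ESR2 (3.69 to 4.16) overlap.

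The stretch from GPR65 to ITPK1 held 49 members, 30 of them coding and 22 bright and coding. The median difference of these 22 was -0.42, -0.52 and -0.47 on knockout arrays 1, 2 and 3, each taken against the control mean, and -0.08, -0.02 and 0.06 on control arrays, so the groups were apart on every array. Of the 22, 17 were lower and 5 higher in knockout cells, and 14 had all knockout arrays below all control arrays (16.2% of bright coding genes of the whole array did). The 8 dim coding genes had a median of -0.0002, and over all 49 members it was -0.11. An unbroken series of 13 bright genes with negative differences ran from GPR65 to PPP4R3A, with a median of -0.59 and 8 of them called.

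PTPN21, a protein tyrosine phosphatase, fell the most. It read 7.69, 7.65 and 8.06 in control and 6.72, 6.89 and 6.83 in knockout cells, a difference of -0.99 (SE 0.14) or 1.98-fold. TTC8, a subunit of the BBSome that carries cargo to cilia, read 11.62, 11.95 and 11.66 against 10.97, 10.81 and 10.60, a difference of -0.95 (SE 0.15) or 1.93-fold, while its second, dimmer probe set differed by -0.32. SPATA7, a protein of the photoreceptor cilium, read 7.21, 7.19 and 7.57 against 6.55, 6.50 and 6.53, a difference of -0.80 (SE 0.14) or 1.74-fold. In these 3 genes the knockout arrays lay below all control arrays, and the call held without any 1 array. The same was true of CCDC88C, a Dishevelled-binding protein, which read 10.56, 10.53 and 10.72 against 10.00, 10.03 and 9.83, a difference of -0.65 (SE 0.13) or 1.57-fold.

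The other called genes of the stretch were less stable. RPS6KA5, the kinase MSK1, differed by -0.82 (SE 0.21), read 10.60, 10.27 and 10.50 against 10.03, 9.77 and 9.11, and was not called without any 1 array other than knockout array 1 (-0.55 to -0.91). FOXN3, a forkhead transcriptional repressor, differed by -0.52 (SE 0.14) and lost its call without the same 5 arrays (-0.43 to -0.57). PSMC1, an ATPase of the 19S proteasome cap, differed by -0.53 (SE 0.13), and ITPK1, an inositol phosphate kinase, by -0.52 (SE 0.13), reading 13.37, 13.24 and 13.12 against 12.64, 12.70 and 12.82. Both kept their call only without control array 3 (-0.45 to -0.56 and -0.45 to -0.57 where lost). PPP4R3A, a regulatory subunit of protein phosphatase 4, differed by -0.59 (SE 0.13) and lost its call without control array 3 or knockout array 1 or 2 (-0.54 to -0.59). Of the 9 genes called lower, 4 were so without any 1 array, and 4 to 7 of the 22 were called lower when 1 array was left out.

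CATSPERB and TC2N, adjacent bright genes within this stretch, rose. CATSPERB, an accessory subunit of the calcium channel of sperm, read 6.48, 6.61 and 6.84 in control and 9.85, 10.24 and 10.43 in knockout cells, a rise of 3.53 (SE 0.17) or 11.6-fold. TC2N, a protein with tandem C2 domains, read 14.64, 14.69 and 14.72 against 15.73, 15.77 and 15.99, a rise of 1.14 (SE 0.13) or 2.21-fold. They directly follow PPP4R3A, the last gene of the series of falls, and after them TRIP11 (0.01) and ATXN3 (0.06) did not pass. RIN3, a guanine nucleotide exchange factor for Rab5 named after its value was seen, was called higher from a dim 4.05 to a dim 4.91 (difference 0.86), but not without control array 2 or knockout array 1 or 3 (0.61 to 0.84). LGMN, the lysosomal protease legumain, and TDP1, which releases topoisomerase I trapped on DNA, were below control on every knockout array (-0.52 and -0.45) without being called.

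**Figure D3:**
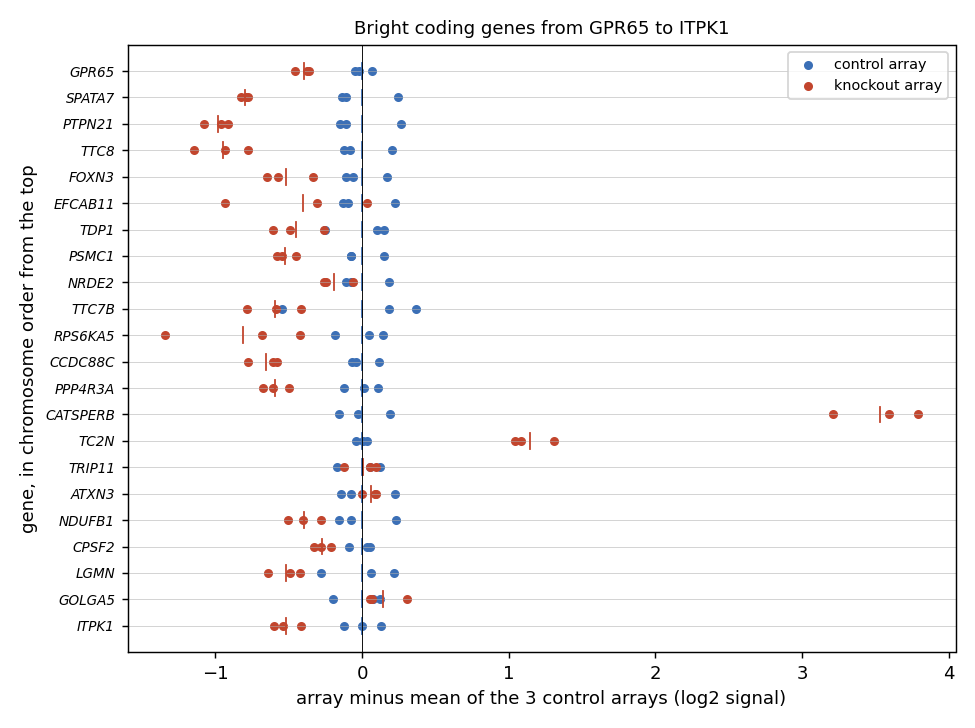
Rows are the 22 bright coding genes from GPR65 to ITPK1 in chromosome order; points show each array minus the mean of the 3 control arrays (log2 signal) and red ticks the knockout mean. Knockout points lie left of 0 in most rows, reach -0.99 on average for PTPN21, and lie far to the right for CATSPERB (3.53).

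The boundaries of the stretch were not sharp at both ends. At GPR65, a proton-sensing receptor, control arrays read 5.90, 5.79 and 5.82 and knockout arrays 5.38, 5.48 and 5.46, a difference of -0.40 that was not called although the arrays did not overlap, but was called among bright genes alone and after repeated quantile normalization. The neighbour just outside, GALC, a lysosomal galactosidase, differed by 0.26 (5.76, 6.34 and 6.21 against 6.23, 6.63 and 6.23), and SEL1L, STON2 and GTF2A1 further out by 0.20, -0.39 and 0.72, of which only GTF2A1 was called, and not without knockout array 1 (0.68). Beyond ITPK1 the next gene, MOAP1, an apoptosis modulator, read 9.91, 9.62 and 9.60 against 9.27, 9.07 and 9.15, a called difference of -0.55 (SE 0.14) that was lost without control array 1 or any knockout array (-0.45 to -0.60). It was followed by LYSET (0.24), GON7 (-0.10), UBR7 (-0.53, called, but not without any 1 array, -0.42 to -0.59) and BTBD7 (-0.27). Falls thus went on past ITPK1 among genes that did not pass. From there to EML1 the 27 bright coding genes had a median of -0.09, with 3 called higher and 5 lower, and 0 of those 5 kept their call when each array was left out in turn.

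The stretch from EML1 to AKT1 held 179 members, of which 46 were coding and 35 of these bright. Against the control mean, the median of these 35 was 1.00, 0.97 and 0.87 on knockout arrays 1, 2 and 3 and between -0.02 and 0.01 on control arrays. Of the 35, 33 were higher in knockout cells, and 28 had all knockout arrays above all control arrays, where 26.8% of bright coding genes of the whole array did. The 26 called higher kept to that number closely when 1 array was left out (24 to 28), and 23 of them were called without any 1 array. None was called lower by limma, and 0 were lower at an unadjusted p under 0.05. The differences ranged from -0.18 to 1.96 with an interquartile range of 0.61 to 1.55, so the measured sizes varied between genes. Whether a common shift underlies them was not tested.

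CDC42BPB, the kinase MRCK beta that acts on the actin cytoskeleton, rose the most. It read 9.30, 9.43 and 9.37 in control and 11.15, 11.29 and 11.56 in knockout cells, a rise of 1.96 (SE 0.14) or 3.90-fold. RCOR1, the CoREST corepressor that joins the demethylase LSD1 to histone deacetylases, read 8.81, 8.53 and 8.67 against 10.60, 10.66 and 10.45, a rise of 1.90 (SE 0.13) or 3.73-fold. Between these neighbours lies TRAF3, an adaptor of tumour necrosis factor receptor signalling, which read 11.01, 10.86 and 11.05 against 12.29, 11.95 and 12.09, a rise of 1.14 or 2.20-fold. All 3 of these adjacent genes had every knockout array above every control array. WDR20, a cofactor of deubiquitinases, read 6.80, 6.63 and 7.09 against 8.35, 8.68 and 8.92, a rise of 1.81 (SE 0.17) or 3.51-fold. CINP, a partner of the cell cycle kinase CDK2, rose by 1.70 (SE 0.14) or 3.25-fold on its brighter probe set (8.64, 8.59 and 8.76 against 10.24, 10.28 and 10.57), whereas its second probe set differed by 0.23, so the size rests on the probe set used.

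A second group of large rises lay nearer to AKT1. MARK3, a kinase of microtubule-associated proteins, rose by 1.56 (2.94-fold), BAG5, a cochaperone of Hsp70, by 1.55 (2.93-fold) and COA8, a mitochondrial protein of cytochrome oxidase, by 1.50 (2.83-fold). XRCC3, a protein of homologous recombination, read 7.56, 7.55 and 7.82 in control and 9.23, 9.21 and 9.14 in knockout cells, a rise of 1.55 (SE 0.13) or 2.92-fold. ZFYVE21, an endosomal FYVE domain protein, rose by 1.74 (SE 0.14) or 3.35-fold, and ATP5MJ, a small subunit of ATP synthase, by 1.37 (2.59-fold). ADSS1, an adenylosuccinate synthase of the purine pathway, rose by 1.60 or 3.04-fold. AKT1 read 11.32, 10.73 and 11.36 against 12.84, 12.62 and 12.80, a rise of 1.62 (SE 0.17) or 3.07-fold, with the lowest knockout array well above the highest control array. Each of these 8 calls held without any 1 array.

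Rises were smaller for the genes named next. HSP90AA1, the stress-inducible HSP90 chaperone, read 16.62, 16.56 and 16.75 against 17.40, 17.25 and 17.04, a rise of 0.59 (SE 0.14) or 1.50-fold, and was not called without control array 1 or 2 or knockout array 1 or 2 (0.50 to 0.57). PPP2R5C, a regulatory subunit of protein phosphatase 2A, rose by 1.01 (2.02-fold), WARS1, the tryptophanyl-tRNA synthetase induced by interferon, by 0.89 (1.85-fold), KLC1, a kinesin light chain, by 0.90 (1.87-fold) and DYNC1H1, the heavy chain of cytoplasmic dynein, by 0.78 (1.72-fold). The 9 bright genes that did not pass were EML1, EVL, DEGS2, SLC25A47, DIO3, TNFAIP2, CKB, TRMT61A and C14orf180. Of these, CKB, brain-type creatine kinase, and TRMT61A, a tRNA methyltransferase, were above control on every knockout array (0.69 and 0.47), while TNFAIP2 was below it on every one (-0.18). TNFAIP2 lies between CDC42BPB and EIF5 and was the only bright coding gene with a negative difference from SLC25A29 to the end of the series at TEDC1 beyond AKT1: 16 positive genes preceded it and 27 followed. The 11 dim coding genes of the stretch had a median of -0.02, 2 of them called higher.

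**Figure D4:**
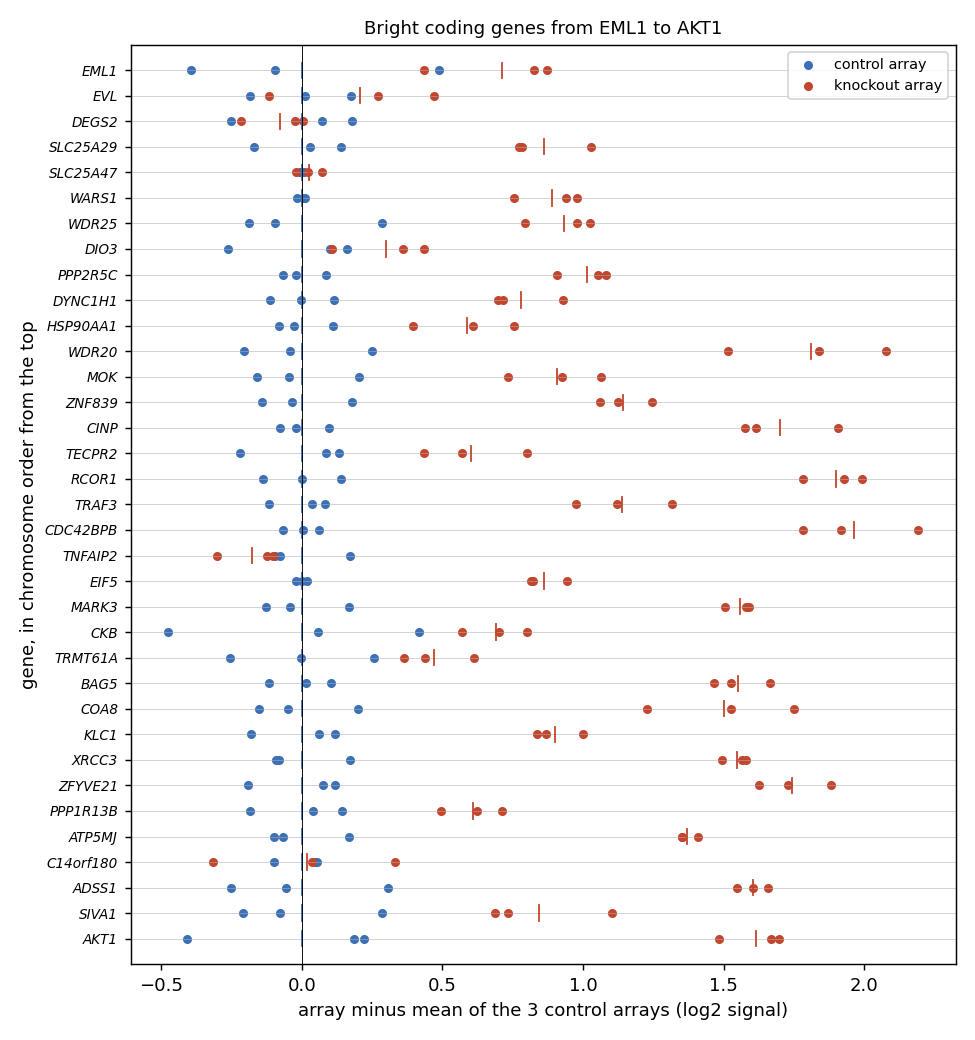
Rows are the 35 bright coding genes from EML1 to AKT1 in chromosome order; points show each array minus the mean of the 3 control arrays (log2 signal) and red ticks the knockout mean. Knockout arrays 1, 2 and 3 lie above the control mean for 34, 32 and 31 of the 35 genes, and the mean gap reaches 1.96 for CDC42BPB.

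Neither end of this stretch was marked by EML1 or AKT1 themselves. EML1, a microtubule-binding protein, read 6.65, 7.53 and 6.95 in control and 7.87, 7.48 and 7.91 in knockout cells, and its difference of 0.71 (SE 0.21) was not called with all arrays, but was without control array 2 (0.95), among bright genes alone and with trended and robust variance. The next genes EVL (0.21) and DEGS2 (-0.08) did not pass, and neither did the nearest outside, CYP46A1 (0.08) and HHIPL1 (-0.02), both dim, or CCDC85C (0.21). Still further out CCNK, the cyclin that activates CDK12, read 13.92, 13.64 and 13.86 against 15.02, 15.14 and 15.23, a rise of 1.32 (SE 0.13) or 2.50-fold, and SETD3, an actin histidine methyltransferase named after its value was seen, rose by 1.04 (2.05-fold). Rises therefore began before EML1. They also went on past AKT1: dim ZBTB42 differed by 0.09, but CEP170B, a centrosomal protein, read 7.07, 7.20 and 7.48 against 8.83, 8.84 and 9.17, a rise of 1.70 (SE 0.15) or 3.24-fold.

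Beyond AKT1 the 12 bright coding genes had a median of 0.75 (0.81, 0.78 and 0.73 on the knockout arrays), all 12 differences were positive and 9 were called. BTBD6 rose by 1.74 (3.35-fold), BRF1, a subunit of the RNA polymerase III factor TFIIIB, by 1.56 (2.95-fold) and AHNAK2 by 1.36 (2.57-fold, 5.27, 4.85 and 5.77 against 6.66, 6.55 and 6.78). JAG2, a Notch ligand, rose by 1.05 (2.06-fold) and MTA1, a subunit of the NuRD complex, by 0.73 (1.66-fold), both named after their values were seen. The calls of CLBA1, PACS2 and CRIP2 were lost without at least 1 array, leaving 6 to 8 of the 12 (CLBA1 0.63 to 0.74 without control array 1 or knockout array 1 or 2, PACS2 0.47 to 0.58 without any 1 array other than control array 2, CRIP2 0.45 to 0.55 without any 1 array). The chromosome then ends in the immunoglobulin heavy chain locus, where 8 of 96 members were bright, 0 were called higher, 1 lower, and the median difference was -0.06.

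**Figure D5:**
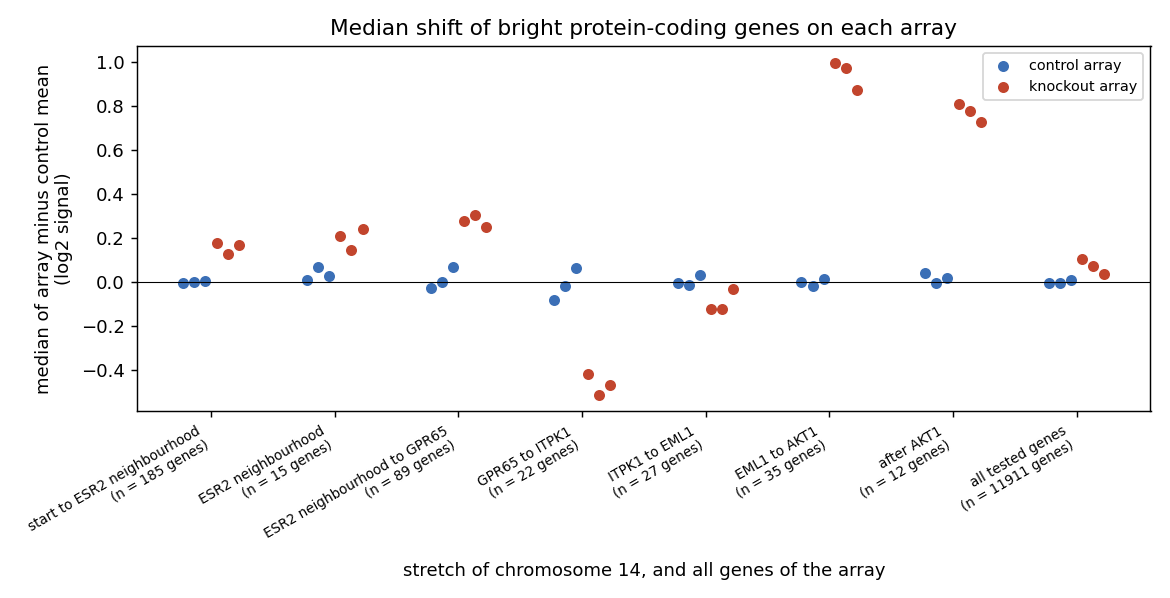
For each stretch of chromosome 14, and for all 11911 bright coding genes of the array, points give the median over genes of 1 array minus the control mean (log2 signal), control in blue and knockout in red. The knockout arrays stand at 0.87 to 1.00 from EML1 to AKT1 and at 0.73 to 0.81 beyond it, at -0.52 to -0.42 from GPR65 to ITPK1, and at 0.04 to 0.10 over all genes.

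The imprinted cluster from DLK1 to DIO3 lies inside the stretch of rises, and its members gave a different picture. It had 99 members: 53 microRNA genes, 39 C/D box snoRNA genes, 3 long non-coding RNAs, the 3 coding genes DLK1, RTL1 and DIO3, and the neighbour BEGAIN. Only 5 were bright, none was called by limma, 8 (8.08%) had an unadjusted p under 0.05 against 20.3% of all tested genes, and the median difference was -0.04 (range -0.48 to 0.58). Knockout arrays lay above all control arrays in 3 members and below in 5, against 14.9% and 10.3% of all tested genes. With nearly all members dim, signal above background was not shown, and a change in them may not have been detectable. MEG3 shares its probe set with a microRNA gene and was not a member.

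Each class was dim. DLK1, a Notch-like inhibitor of adipocyte differentiation, read 4.20, 4.15 and 4.11 in control and 4.18, 3.97 and 3.94 in knockout cells, and RTL1, a gene derived from a retrotransposon, differed by 0.01. DIO3, the deiodinase that inactivates thyroid hormone, was the only bright coding member, at 5.37, 5.73 and 5.79 against 5.74, 5.99 and 6.07. Its difference of 0.30 was not called, and the groups overlapped. Among the long non-coding RNAs MEG9 read 5.74, 5.95 and 5.64 against 5.68, 5.48 and 5.45 (-0.24), MEG8 3.98, 4.03 and 4.10 against 3.73, 3.91 and 3.90 (-0.19), and DIO3OS differed by 0.02. MEG8 was below control on each knockout array, and the groups of MEG9 overlapped. The snoRNA genes had a median of -0.06, and the bright one, SNORD114-27, differed by -0.40 with overlapping groups.

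The microRNA genes had a median difference of -0.04, 2 of the 53 being bright. Their mature sequences are shown for those 2, MIR433 and MIR656, in letters from RefSeq (GRCh38.p14) with the seed, bases 2 to 8, in capitals.
hsa-miR-433-5p: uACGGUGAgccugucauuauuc
hsa-miR-433-3p: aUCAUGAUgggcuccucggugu
hsa-miR-656-5p: aGGUUGCCugugagguguuca
hsa-miR-656-3p: aAUAUUAUacagucaaccucu
MIR433 read 4.90, 5.40 and 4.80 against 5.31, 5.00 and 5.15 (0.12), MIR656 differed by -0.04, and both overlapped between groups. The 4 seeds shown differ from each other. All 53 genes had mature sequences in RefSeq, 97 in all, and 28 of these shared their seed with another of the cluster, among them miR-376a-3p and miR-376b-3p with UCAUAGA. The probe sets read hairpin genes and do not tell the 2 arms of a hairpin apart.

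Counting the RNAs of the imprinted cluster, the stretch from EML1 to AKT1 held 133 non-coding members. Of these 17 were bright, MIR433, MIR656, SNORD114-27 and MEG9 among them, with a median of -0.06, and of all 133 members 1 was called higher and 0 lower. That gene, SNORA28, an H/ACA box snoRNA named after its value was seen, read 4.66, 4.61 and 4.88 in control and 5.76, 5.99 and 6.40 in knockout cells, a rise of 1.33 from a dim level. It lies in an intron of EIF5, a translation initiation factor whose own signal rose by 0.86 (1.82-fold). Over all 179 members, coding and non-coding, the median difference was 0.0003, while that of the 35 bright coding ones was 0.90.

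Elsewhere on the chromosome, further series of bright coding genes with positive differences were found. Positive differences were the more common on the whole array, 7046 against 4865 negative among its 11911 bright coding genes. How often such series occur on other chromosomes was not tested. From the start of the chromosome to the ESR2 neighbourhood 185 bright coding genes had a median of 0.13, with 30 (16.2%) called higher and 12 (6.49%) lower, and the running median peaked at 0.65 around FERMT2. Of these calls, 15 rises and 5 falls were kept whichever array was left out. A series of 12 positive genes from PSMC6 to WDHD1, 7 of them called, lay in this part. So did one of 16 from NGDN to TINF2 (median 0.33, lowest 0.009, 3 called). Between the ESR2 neighbourhood and GPR65 the 89 bright coding genes had a median of 0.26, 24 (27.0%) higher and 2 (2.25%) lower. Only 12 of these rises and 1 of these falls were kept whichever array was left out. There a series of 12 positive genes ran from PALS1 to ZFP36L1 (median 0.75, 9 called) and one of 20 from DCAF4 to ABCD4 (median 0.50, 10 called).

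RDH11, a retinal reductase of the visual and vitamin A pathways, had the largest rise outside the named stretches. It read 10.47, 10.52 and 10.23 in control and 12.50, 12.59 and 12.44 in knockout cells, a rise of 2.10 (SE 0.13) or 4.29-fold. SLC7A8, an amino acid transporter, rose by 1.50 (2.84-fold) and DHRS2, a short-chain dehydrogenase, by 1.41 (2.65-fold). The falls named next had no other called fall directly beside them among bright coding genes, and EGLN3 and STXBP6 lay beside called rises (AKAP6 at 1.13, SPTSSA at 0.52 and NOVA1 at 0.64, named after their values were seen). SPTSSA lost its call without any 1 array other than control array 2 (0.48 to 0.54). NOVA1 lost its call without control array 1 or 2 or knockout array 2 or 3 (0.52 to 0.61). AJUBA, a LIM protein of cell junctions, read 8.80, 8.88 and 9.09 against 7.86, 7.70 and 8.06, a difference of -1.05 or 2.07-fold. STXBP6, a syntaxin-binding protein, fell by 0.95 (1.94-fold), MDGA2 by 0.94 (1.92-fold) and CDKL1, a kinase, by 0.98 (1.97-fold). EGLN3, an oxygen-sensing hydroxylase, fell by 0.71 on its brightest probe set, while its other 2 differed by 0.01 and 0.17. RAB2B (-0.68), called lower, lost its call without any 1 array other than control array 3 (-0.57 to -0.72), whereas SLC39A9, a zinc transporter, kept its fall of 0.67 (1.59-fold).

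The chromosome's genes were also grouped by role. Of 7 genes of AKT signalling and apoptosis, all of them bright, 6 were called higher and 0 lower, with a median difference of 0.84. Among bright coding genes of the whole array 11.0% were called higher and 6.78% lower. Of all tested genes 8.01% were called in either direction. Besides AKT1, TRAF3, PPP2R5C and PPP2R5E they were SIVA1, a proapoptotic protein (0.84), and PPP1R13B, which codes for the p53 partner ASPP1 (0.61, not called without control array 3 or knockout array 2 or 3, 0.52 to 0.60), and the seventh, BCL2L2, differed by -0.05. Of the 7, 5 lie from EML1 to AKT1, as do XRCC3, CINP, DYNC1H1, KLC1, CDC42BPB and KIF26A of the next lists. That stretch was singled out for its rises (74.3% of its bright coding genes called higher). The counts of these lists are therefore not separate from it. Of 11 genes of DNA repair and replication 4 were called higher: XRCC3, CINP, RAD51B, also of homologous recombination, which rose by 0.70 (7.17, 7.42 and 7.59 against 7.92, 8.20 and 8.16) but not without control array 1 or knockout array 2 or 3 (0.59 to 0.67), and CDKN3, a cell cycle phosphatase (0.45, call lost without any 1 array, 0.40 to 0.48). The other 7 did not pass: FANCM differed by 0.47, MNAT1 by 0.31, PARP2 by 0.24, POLE2 by 0.08, APEX1 by 0.06, MLH3 by 0.04 and TDP1 by -0.45. Of 11 genes of cytoskeleton and transport 5 were called higher (DYNC1H1, KLC1, CDC42BPB, KIF26A and ACTR10) and 1 lower (CCDC88C). KIF26A was dim, with means of 3.45 in control and 4.01 in knockout cells. CCDC88C lies from GPR65 to ITPK1, a stretch singled out for its falls. The calls of KIF26A and ACTR10 were each lost without control array 1 or any knockout array (0.48 to 0.62 and 0.48 to 0.57).

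The remaining lists held fewer calls. Of 7 proteasome genes, 0 were called higher and 1, PSMC1, lower, while PSMA6 and PSME1 differed by 0.31 and 0.30 and PSMA3, PSMC6 and PSMB5 by 0.00, 0.01 and -0.16. Of 14 transcription factors 1 was called higher, ZBTB1, and 1 lower, FOXN3, and FOXA1, the pioneer factor that opens chromatin for estrogen receptors, differed by -0.45 without being called (means 14.38 and 13.93). Of 9 serpin genes of the 14q32 cluster, SERPINA3, antichymotrypsin, fell by 0.76 (7.65, 7.37 and 7.60 against 6.70, 6.54 and 7.09), not called without control array 1 or knockout array 1 or 2 (-0.65 to -0.73). None of 5 secreted ribonuclease genes was called by limma, and 0 had an unadjusted p under 0.05. Only 1 of these 5, RNASE1, was bright, beside 3 of the 9 serpin genes and 9 of the 14 transcription factors. A change in the dim ones may not have been detectable. Among 7 interferon and antiviral genes, IRF9, the DNA-binding subunit of the interferon factor ISGF3, rose by 1.11 or 2.16-fold (5.81, 5.76 and 5.41 against 6.56, 7.05 and 6.70) along with WARS1, while IFI27 (0.49) and IFI27L1 (-0.52) did not pass. Of 5 chaperone and stress genes HSP90AA1 and BAG5 were called higher, the call of HSP90AA1 being unstable as given above. Both lie from EML1 to AKT1, as does WARS1, while PSMC1 and FOXN3 lie from GPR65 to ITPK1. These stretches were singled out for their differences, so the counts of these lists are not separate from them. Among all tested genes 4.80% were called higher and 3.20% lower.

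Genes that share a promoter region were then compared. On chromosome 14, 37 pairs of bright coding genes were transcribed away from each other from RefSeq starts less than 1000 bases apart. Both differences were positive in 20 pairs, both negative in 6 and opposite in 11, and both genes were called higher in 10. Of single bright coding genes 25.5% were called higher on chromosome 14 and 11.0% on the whole array. Pairs on other chromosomes were not counted. All 5 pairs from EML1 to AKT1 were among these 10: WARS1 and WDR25 (0.89 and 0.93), HSP90AA1 and WDR20 (0.59 and 1.81), CINP and TECPR2 (1.70 and 0.60), BAG5 and COA8 (1.55 and 1.50), and XRCC3 and ZFYVE21 (1.55 and 1.74). The calls of HSP90AA1 (given above) and TECPR2 (0.49 to 0.64 without control array 1 or 3 or knockout array 1 or 3) were the ones lost without an array. The only pair from GPR65 to ITPK1, NDUFB1 and CPSF2, differed by -0.40 and -0.27, neither called. From ITPK1 to EML1 there were 4 pairs. SETD3 and CCNK were both positive (1.04 and 1.32), and MOAP1 and LYSET differed in sign (-0.55 and 0.24). DDX24 and IFI27L1 (-0.21 and -0.52) and ATG2B and GSKIP (-0.09 and -0.11) were both negative. Beyond AKT1 the only pair, BRF1 and BTBD6, stood at 1.56 and 1.74. These pairs were picked out after the values were seen. The stretch from EML1 to AKT1 was singled out for its rises, with 26 of 35 bright coding genes (74.3%) called higher. Pairs called together there therefore say nothing of shared promoters. Whether partners moved together more than other neighbouring genes was not tested.

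Promoter sequence does not depend on the arrays. In the 300 bases around RefSeq starts (GRCh38.p14, 250 upstream and 50 downstream), the palindromic estrogen response element (GGTCA, any 3 bases, then TGACC, the same on both strands) was present in 20 of 35116 promoters (0.057%) and in 0 of the 749 promoters of chromosome 14 members. The half-site, AGGTCA or TGACCT, was in 7 of 48 promoters of bright coding genes from EML1 to AKT1 (14.6%), 1 of 27 from GPR65 to ITPK1 (3.70%), 0 of 20 around ESR2, 14 of 114 from there to GPR65 (12.3%) and 2 of 22 beyond AKT1 (9.09%), beside 10.7% for all bright coding genes of the array and 13.8% of all promoters. GC boxes, GGGCGG or CCGCCC, occurred in 44 of 48 promoters (91.7%) from EML1 to AKT1, as in those of RCOR1 and AKT1 shown above, in 59.3% from GPR65 to ITPK1 and in 63.6% beyond AKT1, beside 62.8% of 14365 promoters of bright coding genes and 45.0% of all. The median share of G and C was 72.7% from EML1 to AKT1, 72.0% beyond AKT1 and 64.0% over bright coding genes of the array, with medians of 34, 31 and 24 CpG dinucleotides. Half-sites and GC boxes were searched after the array values were seen, some genes have several promoters in these counts, and a match of letters is not a binding site.

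Stretches on other chromosomes gave values of the same kind. In distal 3q, from HTR3C to PAK2, 59 bright coding genes had a median of 0.65 with 33 (55.9%) called higher and 1 (1.69%) lower, beside 0.90 and 74.3% from EML1 to AKT1. In 8q24, from LRATD2 to CYC1, 49 had a median of -0.33 with 5 (10.2%) higher and 19 (38.8%) lower, beside -0.49, 9.09% and 40.9% from GPR65 to ITPK1. All 4 stretches come from the same 6 arrays and were chosen for these differences, and the contrasts between stretches were not tested.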

How the data were processed

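Total RNA was hybridised as biotin-labelled cDNA, per the labels' protocols. Signals of all 6 arrays were deposited by the authors in a single log2 table. The submitters' processing notes name RMA and Transcriptome Analysis Console. RMA normalizes between arrays, so a shift common to all genes is removed. Versions and the array's genome build are not given in the sources used here, and the scale was read from the numbers themselves, 0.567% of which exceed 16 and may be stretched.

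The platform annotation paired 35528 of 134748 probe sets with 1 symbol and 1119 with more; 98101 had none. Of 4339 on chromosome 14, 1295 had 1 symbol. RefSeq (GRCh38.p14) gave gene class and order for 32999 of 33578 genes. For 13 members a brighter probe set on another chromosome was not used. Knockout and control arrays were tested in limma 3.58.1 under R 4.3.3 (lmFit and eBayes, Benjamini-Hochberg adjustment, 4 residual and 6.84 prior degrees of freedom), checked on simulated data; medians and figures used Python 3.11.15, pandas 2.3.3, numpy 2.4.6 and matplotlib 3.10.9. The precision is limited by 3 arrays per group.

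The members, stretches, role lists, markers and tests were chosen with earlier results of these data known. Named genes were ESR2 and its neighbours, the ends of stretches, up to 12 called genes with the largest differences in each of the GPR65 and EML1 stretches, up to 8 each way elsewhere, members of the imprinted cluster and called members of role lists; others are marked as named after their values were seen, or listed to complete a count. Alternatives were another normalization or scaling, a brightness filter, the mean of all probe sets, trended variance, a replicate block and leaving out each array. YY1 had no probe set with 1 symbol and was not analysed here.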

Additional observations from a re-analysis of the deposited data

Results flagged for a closer look

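Probe sets without a single gene symbol took no part in the comparisons. Their identifier numbers follow gene order among named probe sets (Spearman's rho of 1.0 in 2 runs of 570 and 487 named probe sets, a description), which allowed them to be placed after the data were seen. From EML1 to AKT1, 310 such probe sets were placed and 54 were bright, with a median difference of 0.19, 38 positive and 16 negative. Of the 54, 1 (1.85%) was called higher and 0 lower by limma, against 147 higher and 136 lower among 19653 bright ones on the whole array (0.748% and 0.692%). From GPR65 to ITPK1, 42 of 178 were bright, with a median of -0.05, 1 called higher and 3 lower. Over all of chromosome 14, 5 of 630 bright ones were called higher and 4 lower, with a median of 0.04. The genes they read are not named here.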

How the results depend on the processing

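The main counts of chromosome 14 genes were 109 higher and 40 lower. They were 88 and 48 after repeated quantile normalization, 102 and 48 with array medians set equal, 135 and 52 among bright genes alone, 109 and 36 with the mean of all probe sets, 129 and 53 with trended and robust variance, and 75 to 95 and 12 to 29 with 1 array left out. The labels do not say whether equal replicate numbers mark a shared culture or day. Same-numbered arrays had correlations of deviations of -0.019, -0.010 and -0.030, and arrays with different numbers of -0.032 to 0.045. With 3 arrays a group these values cannot settle whether the samples were paired. With the replicate block, 93 genes were higher and 32 lower. ESR2 was not called in any setting run (difference -0.08 to 0.16, adjusted p 0.64 to 0.99 with 1 array left out) and could not be tested among bright genes, being dim. The median difference was 0.14 around ESR2 (0.084 to 0.19 with 1 array left out, 0.074 after quantile normalization, 0.036 over all placed genes), -0.49 from GPR65 to ITPK1 (-0.50 to -0.41 with 1 array left out, -0.11 over all placed genes) and 0.90 from EML1 to AKT1 (0.89 to 0.96 with 1 array left out, 0.85 after quantile normalization, 0.0003 over all placed genes, 144 of whose 179 members were dim or non-coding). The median of all genes shifted by 0.02 as deposited, -0.002 after quantile normalization and -0.008 with medians equal. Across named genes and settings, 908 results kept their side of the threshold, 56 lost it, 9 gained it and 0 reversed. PPP2R5E was not called after quantile normalization, with medians equal or with the block, nor ITPK1 and PSMC1 with the block, nor EGLN3 with the mean of all probe sets (-0.18). HIF1A, GPX2 and EML1 gained a call among bright genes alone and with trended variance, GPR65 among bright genes alone and after quantile normalization, and EML1 also without control array 2. Signal near background limits what can be said of dim genes.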

Other observations

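Different probe sets of a gene did not always move together. FAM177A1 differed by 0.08 on the probe set used and by 1.35 on a dimmer one, NUBPL by -0.63 and 0.10, and KLHL28 by 0.60 and -0.18. In SETD3 the values were 1.04 and 0.45, and in ATP6V1D 0.79 and 0.19. The T cell receptor alpha and delta loci, which lymphocytes rearrange and transcribe, had 71 members, 8 of them bright, 0 called higher or lower and a median difference of -0.02. LINC01269, a long non-coding RNA between the ESR2 neighbourhood and GPR65, read 6.63, 6.33 and 5.89 in control and 4.81, 4.55 and 4.62 in knockout cells, a difference of -1.62 (SE 0.18) down to a dim level. HSPE1P2, a pseudogene of a mitochondrial chaperonin near ESR2, read 9.94, 9.40 and 9.44 against 8.89, 8.75 and 8.48, a difference of -0.89 (SE 0.17), although reads of a pseudogene and its parent gene may not be told apart by probes. RPPH1, the RNA of ribonuclease P, read 11.87, 11.81 and 11.85 against 11.34, 11.11 and 11.23, a difference of -0.61 (SE 0.12), not called without knockout array 2 (-0.56). These genes were chosen after their values were seen.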
